A study of Homo sapiens with 6 samples.

Results

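The genes examined here are 42 enzymes and regulators of cholesterol and fatty acid synthesis, chosen by symbol and by known function from the 20667 gene symbols in each of 6 RNA-seq libraries of U2932 cells. U2932 is a human line of diffuse large B cell lymphoma, of the subtype named after activated B cells. ROCK2 encodes a serine-threonine kinase that acts downstream of the GTPase RhoA. The ROCK2 KD group held 3 libraries of cells with a lentiviral shRNA against ROCK2, and the Scr group held 3 libraries of cells with a scrambled shRNA in the same kind of vector. Both groups were stable lines that carried puromycin resistance and the fluorescent protein tGFP, were sorted and drug-selected, and grew in Iscove's DMEM with fetal bovine serum. The comparison asks how a knockdown of ROCK2 alters the transcriptome of these cells. It rests on 1 cell line, with libraries numbered 1 to 3 in each group. Nothing in the labels says that the 3 numbers were separate infections or cultures, so p-values measure the spread between these libraries, which may be technical. The values are FPKM, fragments relative to transcript length and to all mapped fragments, so levels can be compared between genes. Scaled FPKM are FPKM after each library was divided by its scaling factor, and every difference below is on the log2(scaled FPKM + 1) scale, which understates the change of low genes.

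Cells make cholesterol from acetyl-CoA through mevalonate, isoprenoid diphosphates, squalene and a series of sterol intermediates, and they make fatty acids from the same acetyl-CoA through malonyl-CoA. The transcription factors SREBP-1 and SREBP-2 switch on these enzymes. They are held in the endoplasmic reticulum with their escort SCAP by the INSIG proteins when sterols are plentiful, and they travel to the Golgi and are cut free when sterols run low. LXR factors respond to oxysterols and switch on genes of cholesterol export and of SREBP-1. Serum in the medium supplies lipoproteins, from which cultured cells can also take up cholesterol.

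ROCK2 itself, the targeted gene, measured 4.03, 4.33 and 1.06 scaled FPKM in ROCK2 KD replicates 1, 2 and 3, against 6.34, 5.83 and 4.91 in Scr. Every ROCK2 KD library was below every Scr library, and the gap was widest in replicate 3 (log2 fold change −0.81, SE 0.22, limma adjusted p = 0.811, and −0.44 without replicate 3). All 6 B cell markers passed the filter on low values, with summed levels of 655 to 1193 scaled FPKM in ROCK2 KD and 463 to 1219 in Scr. The 12 T cell, myeloid and fibroblast markers did not pass it, the highest single value among them was 1.11, and CD2 was listed at 0 in every library. The files hold no counts. From the steps between low values, the libraries had 71.4% to 100% of the depth of the deepest, Scr replicate 3, and the gap within a pair was widest in replicate 2, where ROCK2 KD stood at 77.4% and Scr at 92.7%. Before scaling, the median gene was 0.71 higher in replicate 2 and 0.70 higher in replicate 3 than in replicate 1, so levels are compared between replicate numbers only relative to that shift.

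Promoters of 5 of the genes are printed here. SREBF2 and SREBF1 were taken as the SREBP genes. From the tested genes with a single window, CYP51A1, MSMO1 and INSIG1 were then taken. Their ROCK2 KD minus Scr difference in replicate 2 most exceeded the mean difference of replicates 1 and 3. SREBF2 shared the order of signs of these 3, as did other genes named below, and SREBF1 did not. Each promoter is the RefSeq window (GRCh38.p14) from 250 bases before to 50 bases after the gene's start, 5′ to 3′ on the strand of the gene. The files themselves were made on hg19, and no position was carried between the builds. The windows lie at chr22:41832855-41833154 (plus strand) for SREBF2, chr7:155297628-155297927 (plus) for INSIG1, chr7:92134428-92134727 (minus) for CYP51A1, chr4:165327419-165327718 (plus) for MSMO1 and chr17:17836937-17837236 (minus) for SREBF1. Capitals mark, on either strand, the sterol response letters TCACNCCAC, the E-box CACGTG and the NF-Y box CCAAT, whose reverse complement reads ATTGG.
SREBF2: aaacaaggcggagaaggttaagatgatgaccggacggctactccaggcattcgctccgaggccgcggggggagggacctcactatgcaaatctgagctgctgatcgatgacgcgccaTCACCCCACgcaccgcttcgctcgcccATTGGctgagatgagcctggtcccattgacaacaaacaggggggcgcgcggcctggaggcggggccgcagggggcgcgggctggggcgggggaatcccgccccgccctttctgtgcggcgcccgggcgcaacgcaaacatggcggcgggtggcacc
INSIG1: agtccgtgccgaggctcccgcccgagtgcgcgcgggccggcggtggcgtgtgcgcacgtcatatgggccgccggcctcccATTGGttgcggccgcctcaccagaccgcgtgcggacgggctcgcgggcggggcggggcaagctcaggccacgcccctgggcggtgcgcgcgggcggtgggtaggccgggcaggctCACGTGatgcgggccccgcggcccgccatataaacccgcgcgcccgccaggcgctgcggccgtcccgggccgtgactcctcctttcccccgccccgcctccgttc
CYP51A1: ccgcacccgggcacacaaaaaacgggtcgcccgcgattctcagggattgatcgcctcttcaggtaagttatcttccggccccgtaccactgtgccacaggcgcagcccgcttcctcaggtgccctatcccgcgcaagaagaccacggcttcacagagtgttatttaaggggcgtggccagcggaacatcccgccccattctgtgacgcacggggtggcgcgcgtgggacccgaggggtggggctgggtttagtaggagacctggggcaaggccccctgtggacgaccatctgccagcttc
MSMO1: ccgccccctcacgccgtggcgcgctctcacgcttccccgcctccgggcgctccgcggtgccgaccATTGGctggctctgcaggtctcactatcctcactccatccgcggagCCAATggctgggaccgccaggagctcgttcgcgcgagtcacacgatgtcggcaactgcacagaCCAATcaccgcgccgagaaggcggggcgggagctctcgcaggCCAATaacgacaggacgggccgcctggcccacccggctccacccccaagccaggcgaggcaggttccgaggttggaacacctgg
SREBF1: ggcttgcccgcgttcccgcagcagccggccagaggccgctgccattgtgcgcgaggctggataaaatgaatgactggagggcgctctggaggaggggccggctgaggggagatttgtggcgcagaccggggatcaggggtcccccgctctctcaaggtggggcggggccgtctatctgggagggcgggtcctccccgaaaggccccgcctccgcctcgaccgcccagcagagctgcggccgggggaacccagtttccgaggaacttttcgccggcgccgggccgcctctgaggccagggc

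Of these 5 windows, that of SREBF2 held TCACNCCAC 133 bases before the start and an NF-Y box 106 bases before it. The INSIG1 window held an E-box 55 bases and an NF-Y box 170 bases before the start, and that of MSMO1 held 4 NF-Y boxes, at 185, 139, 76 and 34 bases. None of the 3 motifs was found in the windows of CYP51A1 and SREBF1. A total of 37 of the 42 genes matched 57 windows, since some genes have several starts. No window was matched for ACAT2, FDFT1, SQLE, FASN and ABCG1. The NF-Y box was in 31 of the 57 windows (54.4%), belonging to 27 of the 37 genes, and in 34.6% of all 35116 windows. The E-box was in 12.3% of the genes' windows and 7.26% of all windows, and TCACNCCAC, in the windows of SREBF2 and ACSL1 only, in 3.51% and 1.13%. These are matches of letters and not sites of binding.

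The pathway was expressed in U2932 cells throughout. A total of 40 of the 42 genes passed the filter of at least 1 FPKM in at least 3 libraries, as did 10526 of the 20667 symbols. The highest mean level over the 6 libraries was that of FDPS, which makes farnesyl diphosphate, at 118 scaled FPKM, followed by FDFT1, which makes squalene, at 103. FDPS and HSD17B7 have near-identical pseudogenes, and how reads were shared among such copies is not given in the sources used here, so their levels are uncertain in that respect. IDI1, the isopentenyl diphosphate isomerase, averaged 65.5, and ACLY, which makes cytosolic acetyl-CoA from citrate, averaged 62.7. The ranges of these last 2 genes overlapped, at 51.3 to 84.6 for IDI1 and 45.4 to 74.7 for ACLY. SREBF2, the gene of SREBP-2, averaged 53.4 and its paralog SREBF1 averaged 6.97, and the lowest SREBF2 library (36.9) was above the highest SREBF1 library (10.3). Between the INSIG genes the same held for INSIG1 (22.2 to 41.2) and INSIG2 (2.29 to 4.82). NR1H2, which encodes LXRβ, averaged 35.7, against 2.46 for NR1H3, which encodes LXRα.

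ABCA1 and ABCG1, the cholesterol exporters that LXR factors switch on, were the only 2 of the 42 genes that did not pass the filter. ABCA1 was between 0.03 and 0.34 scaled FPKM and ABCG1 between 0 and 0.08. ABCA1 was highest in the 2 replicate 1 libraries, at 0.24 in ROCK2 KD and 0.34 in Scr. No fold change was computed for either.

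**Figure D1:**
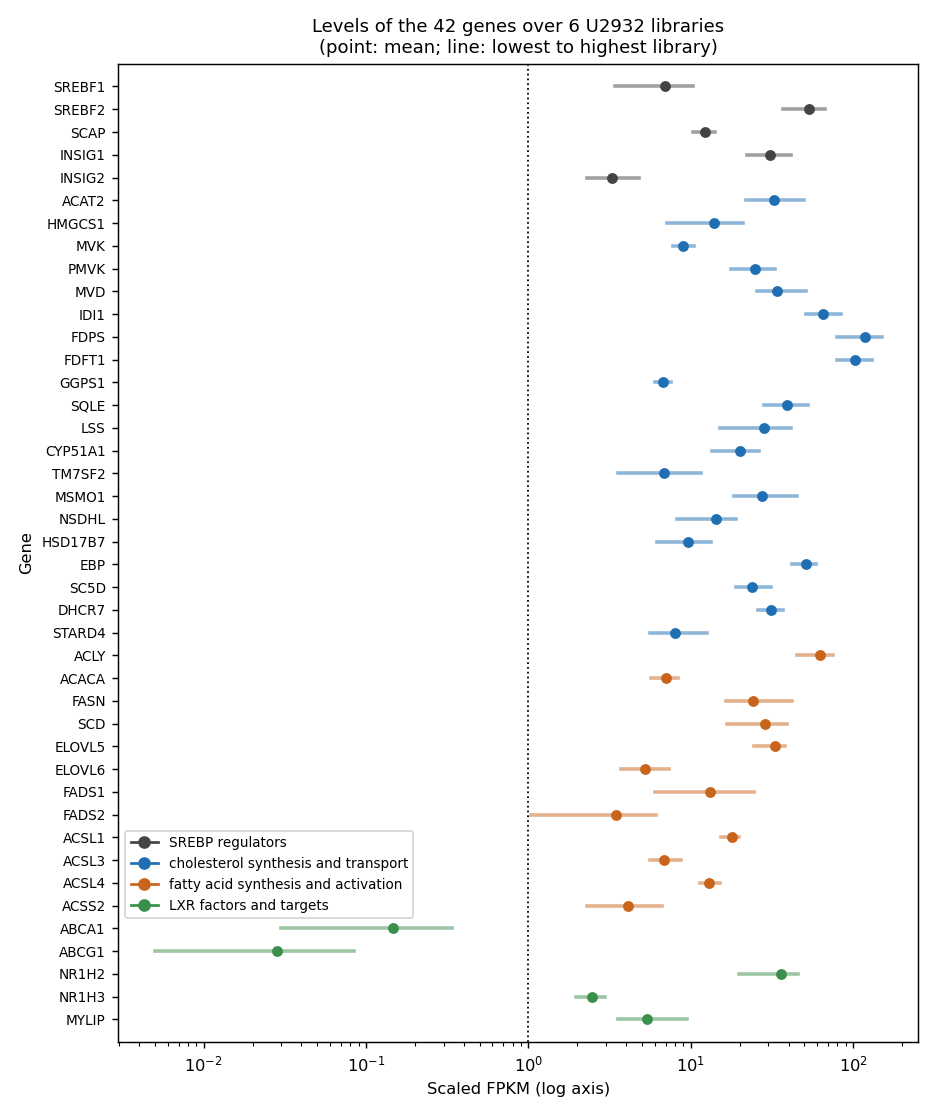
Scaled FPKM of the 42 genes (log axis), coloured by role, with the mean over the 6 libraries as a point, the lowest to the highest library as a line, and 1 FPKM as the dotted line. FDPS and FDFT1 stand highest, SREBF2 stands above SREBF1 without overlap, and ABCA1 and ABCG1 lie far below 1. The ABCG1 library at 0 is drawn at the left end of its line.

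None of the 40 tested genes reached an adjusted p under 0.05 between ROCK2 KD and Scr (limma with the replicate number as a block, Benjamini-Hochberg adjustment). The same held over all genes, where 0 of 10526 (0%) reached it. At an unadjusted p under 0.05, 4 of the 40 genes were lower in ROCK2 KD, namely SREBF1, MVD, FASN and FADS2, against 2.3% of all genes, and 0 of the 40 were higher, against 3.09% of all genes. The median log2 fold change of the 40 genes was −0.10 and that of all genes was −0.00, with 31 of the 40 genes below 0 and 9 above. Of all 10526 genes, 5400 were below 0. Adjusted p-values ran from 0.831 to 0.998. Without replicate 3 the median was 0.01 with 20 of the 40 genes below 0, and without replicate 2 it was −0.16 with 35 below 0. In a bulk measurement such as this, fewer cells that express a gene and less RNA per cell cannot be told apart.

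The 3 pairs of libraries did not show the same picture. In replicate 1, 25 of the 40 genes were lower in ROCK2 KD than in Scr (median difference −0.11), in replicate 2 18 were lower (median 0.06), and in replicate 3 30 were lower (median −0.34). The median difference of all 10526 genes tested was 0.01, −0.01 and −0.00 in these pairs, and 5052, 5405 and 5275 of them were lower in ROCK2 KD. SREBF1, MVK, MVD, FASN and SCD were lower in ROCK2 KD in all 3 pairs, 5 of 40 genes against 12.3% of all genes, a share near the background. ACSL4 was the 1 gene higher in all 3 pairs, against 12.7% of all genes. A larger number, 14 of 40 genes against 11.1% of all genes, were lower in ROCK2 KD in replicates 1 and 3 and higher in replicate 2. These were SREBF2, INSIG1, HMGCS1, IDI1, SQLE, CYP51A1, MSMO1, NSDHL, HSD17B7, EBP, SC5D, DHCR7, ACACA and ELOVL5. The opposite order, higher in replicates 1 and 3 and lower in replicate 2, was seen in 3 of 40 genes, PMVK, TM7SF2 and MYLIP, against 12.6% of all genes. The 3 ROCK2 KD libraries were all below the 3 Scr libraries for 1 gene, MVK, against 0.903% of all genes, and all above them for none, against 1.24% of all genes.

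**Figure D2:**
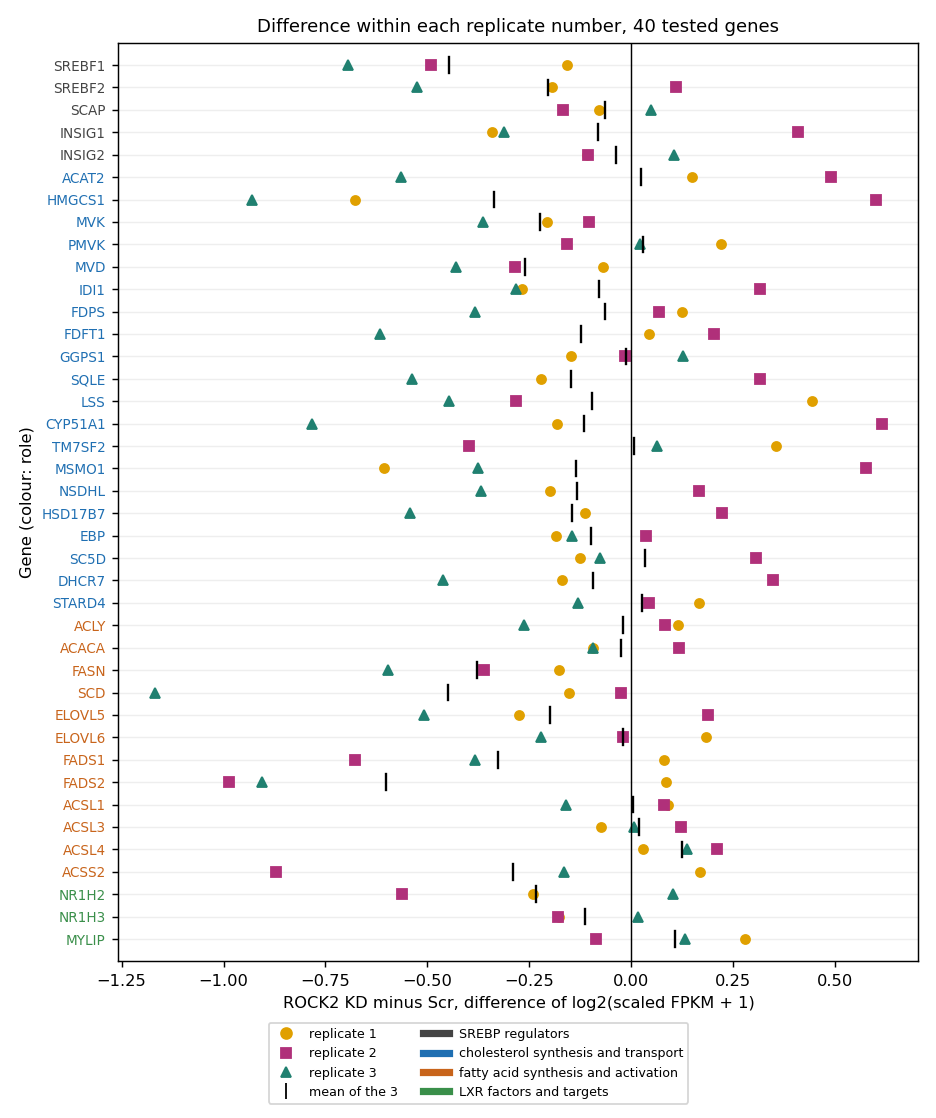
Difference of ROCK2 KD from Scr on the log2(scaled FPKM + 1) scale within each replicate number for the 40 tested genes, with gene names coloured by role and a bar at the mean of the 3 differences. Most cholesterol synthesis genes have replicate 2 to the right of 0 and replicate 3 to its left, while SREBF1, MVK, MVD, FASN and SCD have all 3 points left of 0.

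The 5 SREBP regulators had negative log2 fold changes without exception (median −0.08, range −0.45 to −0.04, median −0.33 without replicate 2), and 1 of them, SREBF1, had an unadjusted p under 0.05. SREBF1, whose product favours fatty acid synthesis, measured 9.12, 3.39 and 5.05 scaled FPKM in ROCK2 KD replicates 1 to 3 and 10.3, 5.17 and 8.79 in Scr. Each ROCK2 KD library was below its own Scr partner (differences −0.16, −0.49 and −0.69), but the groups overlapped because replicate 1 was high in both. The log2 fold change was −0.45 (SE 0.13, adjusted p = 0.831), the lowest adjusted p among the 40 genes.

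SREBF2, whose product favours cholesterol synthesis, measured 58.5, 54.2 and 36.9 in ROCK2 KD and 67.0, 50.2 and 53.6 in Scr. ROCK2 KD was lower in replicates 1 and 3 and slightly higher in replicate 2, and the ROCK2 KD library of replicate 3 was the lowest of the 6 (log2 fold change −0.20, SE 0.13, adjusted p = 0.96). The mean was −0.36 without replicate 2 and −0.03 without replicate 3. INSIG1, which retains the SREBP proteins and is itself a known SREBP target, measured 32.3, 29.9 and 26.1 in ROCK2 KD and 41.2, 22.2 and 32.6 in Scr. Its differences were −0.34, 0.41 and −0.31, so that the mean (−0.08, SE 0.16, adjusted p = 0.991) describes none of the pairs, and it was above 0 without replicate 1 (0.05) and without replicate 3 (0.04). The escort gene SCAP measured 11.6, 10.3 and 14.2 in ROCK2 KD and 12.3, 11.6 and 13.7 in Scr, with no pair further apart than 0.17 (log2 fold change −0.06, SE 0.10, adjusted p = 0.986, from −0.11 to −0.02 with 1 replicate left out). INSIG2 differed by −0.11, −0.10 and 0.11.

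The 20 genes of cholesterol synthesis and transport had a median log2 fold change of −0.10 (range −0.34 to 0.03), with 15 below 0. The group median was −0.26 without replicate 2 and turned to 0.05 without replicate 3. Their median difference was −0.14 in replicate 1, 0.19 in replicate 2 and −0.38 in replicate 3, and ROCK2 KD was higher in 7, 14 and 3 of the 20 genes in these pairs. Under 4 other ways of scaling the libraries the group median stayed between −0.16 and −0.13 in replicate 1, between 0.19 and 0.21 in replicate 2 and between −0.40 and −0.36 in replicate 3. The difference of ROCK2 itself in the same 3 pairs was −0.54, −0.36 and −1.52. The part of depth and of the ROCK2 level in the order of the pairs was not tested.

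**Figure D3:**
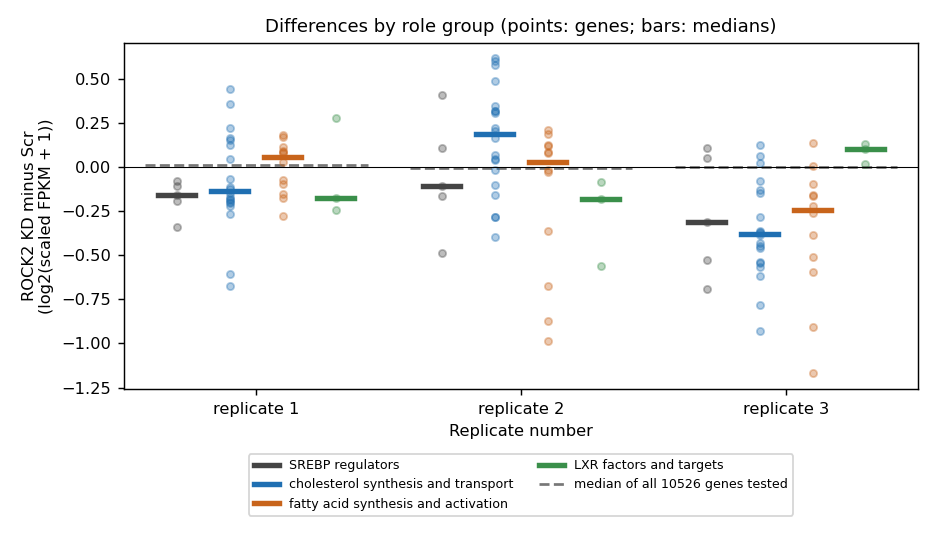
Difference of ROCK2 KD from Scr on the log2(scaled FPKM + 1) scale by replicate number and role group, with each tested gene as a point, the group median as a bar and the median of all 10526 tested genes as a dashed grey line. The cholesterol genes' median is −0.14, 0.19 and −0.38 in replicates 1, 2 and 3.

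At the head of the pathway, HMGCS1, which joins acetyl-CoA and acetoacetyl-CoA, showed the widest swing of the 40 genes. HMGCS1, MVK, SQLE, CYP51A1 and MSMO1, given here with every library, were picked after their values had been seen. HMGCS1 measured 10.5, 20.9 and 7.18 scaled FPKM in ROCK2 KD replicates 1 to 3 and 17.4, 13.4 and 14.6 in Scr. The highest and the lowest of its 6 values were both ROCK2 KD libraries, of replicates 2 and 3. The differences were −0.68, 0.60 and −0.93 (log2 fold change −0.34, SE 0.28, adjusted p = 0.969), and the mean was −0.80 without replicate 2 and −0.03 without replicate 3. Its difference in replicate 2 exceeded the mean of the other two by 1.4 log2 units, a value above that of 99.9% of all genes. ACAT2, the cytosolic thiolase one step earlier, differed by 0.15, 0.49 and −0.56.

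Of the 3 enzymes that turn mevalonate into isopentenyl diphosphate, MVK and MVD were lower in ROCK2 KD in every pair and PMVK was not. MVD, the decarboxylase, measured 27.8, 25.7 and 37.6 in ROCK2 KD and 29.2, 31.5 and 51.0 in Scr. The gap was narrowest in replicate 1 and widest in replicate 3 (differences −0.07, −0.28 and −0.43), and the mean was −0.26 (SE 0.11, adjusted p = 0.909), or −0.17 without replicate 3. MVK, mevalonate kinase, measured 7.75, 8.92 and 7.87 in ROCK2 KD and 9.09, 9.66 and 10.4 in Scr, and was the 1 gene whose groups did not overlap (−0.22, SE 0.11, adjusted p = 0.944). PMVK, phosphomevalonate kinase, differed by 0.22, −0.16 and 0.02.

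Among the isoprenoid genes, FDPS measured 86.4, 151 and 108 in ROCK2 KD and 79.2, 144 and 141 in Scr. Replicates 1 and 2 differed by 0.12 and 0.07 and replicate 3 by −0.38, and the mean (−0.06, SE 0.12, adjusted p = 0.991) ran from −0.16 without replicate 1 to 0.10 without replicate 3. IDI1 differed by −0.27, 0.32 and −0.28. GGPS1, which makes geranylgeranyl diphosphate, the lipid that is attached to RhoA and other small GTPases, was among the steadiest genes, between 6.03 and 7.58 in all 6 libraries (−0.01, SE 0.11, adjusted p = 0.996).

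The 11 genes from squalene to cholesterol had a median difference of −0.17 in replicate 1, 0.22 in replicate 2 and −0.45 in replicate 3. ROCK2 KD was the lower in 8 of the 11 in replicate 1, in 2 in replicate 2 and in 10 in replicate 3. SQLE, squalene epoxidase, measured 32.1, 52.4 and 28.3 in ROCK2 KD and 37.6, 41.9 and 41.5 in Scr. The 3 Scr libraries of SQLE lay between 37.6 and 41.9, while the ROCK2 KD libraries lay on both sides of them. CYP51A1, lanosterol 14-demethylase, had its highest and its lowest library in ROCK2 KD too, with 18.8, 26.2 and 13.5 in ROCK2 KD and 21.4, 16.8 and 24.0 in Scr (differences −0.18, 0.62 and −0.78).

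MSMO1, the sterol-C4-methyl oxidase, measured 29.4, 28.2 and 18.4 in ROCK2 KD and 45.4, 18.6 and 24.1 in Scr. Here the Scr libraries spread more widely than the ROCK2 KD libraries, since Scr replicate 1 was the highest of the 6, and the differences were −0.61, 0.58 and −0.38. NSDHL and HSD17B7, which act at the same demethylation of carbon 4, differed by −0.20, 0.17 and −0.37 and by −0.11, 0.22 and −0.54. DHCR7, which makes cholesterol from its direct precursor, differed by −0.17, 0.35 and −0.46, and EBP, the sterol isomerase, by −0.18, 0.04 and −0.14. FDFT1 differed by 0.04, 0.20 and −0.62.

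SC5D, the sterol desaturase, measured 28.4, 24.5 and 19.0 in ROCK2 KD and 31.0, 19.6 and 20.1 in Scr. It had the most positive log2 fold change of these 11 genes at 0.03 (SE 0.12, adjusted p = 0.996), which was −0.10 without replicate 2, 0.12 without replicate 1 and 0.10 without replicate 3. FDFT1, LSS, the lanosterol synthase, and TM7SF2, a sterol reductase, were the 3 of these 11 genes without the order lower, higher, lower. LSS differed by 0.44, −0.28 and −0.45. TM7SF2 measured 11.6, 3.58 and 6.06 in ROCK2 KD and 8.82, 5.04 and 5.76 in Scr, with differences of 0.36, −0.40 and 0.06. Its mean was 0.01 (SE 0.16, adjusted p = 0.998), and was −0.17 without replicate 1, 0.21 without replicate 2, −0.01 without replicate 3 and −0.01 with a pseudocount of 0.1. STARD4, a carrier of cholesterol between membranes, differed by 0.17, 0.04 and −0.13.

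As a count, the difference in replicate 2 exceeded the mean difference of replicates 1 and 3 by more than 0.5 log2 units in 11 of the 40 genes, against 2.18% of all genes. These were INSIG1, 8 genes of cholesterol synthesis (ACAT2, HMGCS1, IDI1, SQLE, CYP51A1, MSMO1, HSD17B7 and DHCR7) and the fatty acid genes SCD and ELOVL5. The difference in replicate 2 fell short of that mean by more than 0.5 in 4 of the 40 genes, TM7SF2, FADS1, FADS2 and ACSS2, against 7.57% of all genes. The limit of 0.5 and this way of counting were set after the values had been seen, and no test was made of the count. The count rests on 1 pair of libraries.

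**Figure D4:**
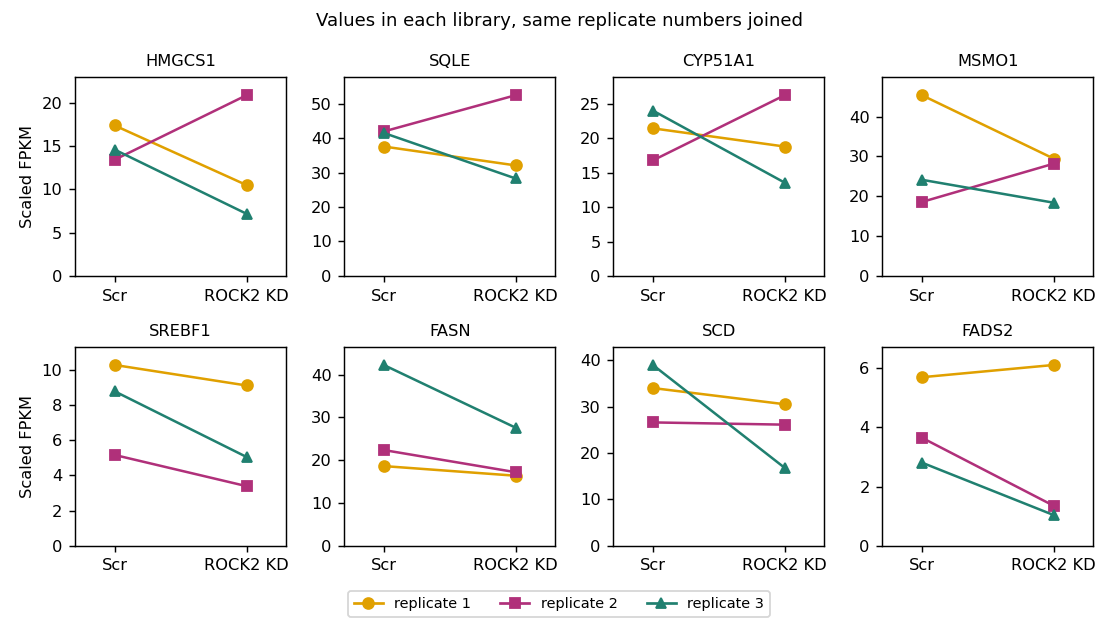
Scaled FPKM in each of the 6 libraries for 8 genes, with the Scr and ROCK2 KD libraries of the same replicate number joined by a line and each axis starting at 0. In the upper row (HMGCS1, SQLE, CYP51A1, MSMO1) the replicate 2 line goes up and the others go down, and in the lower row all lines of SREBF1, FASN and SCD go down, as do those of replicates 2 and 3 for FADS2.

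The 12 genes of fatty acid synthesis and activation had a median log2 fold change of −0.11 (range −0.60 to 0.13), with 9 below 0, and the median was −0.01 without replicate 3. Their median difference was 0.05, 0.03 and −0.24 in replicates 1, 2 and 3. FASN, the fatty acid synthase, measured 16.4, 17.2 and 27.6 scaled FPKM in ROCK2 KD and 18.6, 22.4 and 42.3 in Scr. ROCK2 KD was lower in each pair (differences −0.18, −0.36 and −0.60), and the groups overlapped because replicate 3 was high in both (log2 fold change −0.38, SE 0.12, adjusted p = 0.863). ComBat, the empirical Bayes batch adjustment that the study names, was also run on the replicate number, with no block in the fit. It was run here on log2(scaled FPKM + 1) values, while the study worked from counts. In that setting FASN was the 1 gene of the 40 with a limma adjusted p under 0.05 (0.0483), at a log2 fold change of −0.28. That setting called 297 of all genes, against 0 with the block. Its fit does not count the replicate means already removed, so its p-values can be too small.

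The enzymes that act before FASN were not lower in all 3 pairs. ACLY measured 49.3, 74.7 and 61.9 in ROCK2 KD and 45.4, 70.5 and 74.4 in Scr (differences 0.12, 0.08 and −0.26), and its mean of −0.02 (SE 0.11, adjusted p = 0.996) ran from −0.09 without replicate 1 to 0.11 without replicate 3. ACACA, the acetyl-CoA carboxylase that makes malonyl-CoA, stood between 5.67 and 8.39 in all libraries, with no pair further apart than 0.12. ACSS2, which makes acetyl-CoA from acetate, differed by 0.17, −0.87 and −0.16.

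The desaturase FADS2 had the lowest log2 fold change of the 40 genes, and SCD was next, level with SREBF1 to 2 decimals. FADS2, the delta-6 desaturase of polyunsaturated fatty acid synthesis, measured 6.11, 1.35 and 1.03 in ROCK2 KD and 5.69, 3.65 and 2.81 in Scr. ROCK2 KD was the lower in replicates 2 and 3 (differences −0.99 and −0.90) and differed by 0.09 in replicate 1 (log2 fold change −0.60, SE 0.22, adjusted p = 0.888). The mean was −1.002 without replicate 1 and −0.39 without replicate 2. FADS1, the delta-5 desaturase and its neighbour in the pathway, had the same order of signs, with 24.6, 6.03 and 6.09 in ROCK2 KD and 23.2, 10.2 and 8.24 in Scr (−0.33, SE 0.16, adjusted p = 0.944), and its mean was −0.54 without replicate 1 and −0.15 without replicate 2.

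SCD, the delta-9 desaturase that makes monounsaturated fatty acids, measured 30.5, 26.1 and 16.8 in ROCK2 KD and 34.0, 26.6 and 39.0 in Scr. Its mean of −0.45 (SE 0.22, adjusted p = 0.944) came mostly from replicate 3, where the difference was −1.17, and was −0.08 without it, while replicate 2 differed by −0.03. ELOVL5, an elongase of polyunsaturated chains, followed the order of the sterol genes (−0.28, 0.19 and −0.51), and ELOVL6, an elongase of saturated chains, differed by 0.18, −0.02 and −0.22. Of the acyl-CoA synthetases, ACSL4, which prefers arachidonate, had the highest log2 fold change of the 40 genes. It measured 11.6, 13.9 and 15.2 in ROCK2 KD and 11.3, 11.9 and 13.7 in Scr (0.13, SE 0.10, adjusted p = 0.969, and 0.08 without replicate 2). ACSL1 and ACSL3 had log2 fold changes of 0.00 and 0.02.

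Of the LXR group, NR1H2 measured 34.96, 19.8 and 45.7 in ROCK2 KD and 41.5, 29.8 and 42.5 in Scr. It was lower in replicates 1 and 2 and higher in replicate 3 (log2 fold change −0.23, SE 0.14, adjusted p = 0.957), and its mean was −0.07 without replicate 2 and −0.39 without replicate 3. NR1H3 differed by −0.18, −0.18 and 0.02. MYLIP, a ubiquitin ligase and LXR target that degrades lipoprotein receptors, measured 9.44, 3.56 and 4.16 in ROCK2 KD and 7.59, 3.85 and 3.71 in Scr (0.11, SE 0.12, adjusted p = 0.982), with a mean of 0.03 without replicate 1 and 0.20 without replicate 2. In both groups the replicate 1 libraries of MYLIP were the highest.

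A further 47 genes of the same pathways were set out in 5 lists. A total of 45 of them were tested, none had an adjusted p under 0.05, and their log2 fold changes had a median of 0.03, which turned to −0.01 without replicate 2. The list medians were 0.05 for SREBP processing and sterol-regulated degradation (7 genes), 0.02 for isoprenoid use (11), 0.07 for further sterol enzymes and sterol handling (10), 0.00 for further fatty acid enzymes (13 of 14 tested) and 0.07 for LXR partners (4 of 5 tested). At an unadjusted p under 0.05, 2 of the 45 were higher in ROCK2 KD, against 3.09% of all genes, and 2 were lower, against 2.3%, shares near the background. Of the higher ones, ME1, the malic enzyme that supplies NADPH, measured 12.3, 13.8 and 17.9 scaled FPKM in ROCK2 KD and 10.9, 11.5 and 13.2 in Scr (0.27, SE 0.11). NCOA1, a coactivator of nuclear receptors, measured 7.22, 12.4 and 12.7 in ROCK2 KD and 6.48, 8.82 and 8.83 in Scr (0.35, SE 0.12). Both were higher in every pair, with groups that overlapped. Of the lower ones, ERLIN2, a protein of sterol-regulated degradation, measured 5.85, 5.82 and 4.24 in ROCK2 KD and 7.23, 6.67 and 5.70 in Scr (−0.26, SE 0.11). The other was MID1IP1, which promotes the assembly of acetyl-CoA carboxylase. MID1IP1 measured 16.4, 4.12 and 4.44 scaled FPKM in ROCK2 KD and 17.04, 7.60 and 14.03 in Scr (−0.75, SE 0.24, adjusted p = 0.888), so that replicate 1 differed by −0.05 and replicate 3 by −1.47. The order lower, higher, lower was seen in 2 of these 45 genes, against 11.1% of all genes, and the opposite order in 4, against 12.6%.

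Across the 3 replicate numbers, 18 of the 40 genes had an adjusted p under 0.05 (limma F test), against 48.7% of all genes, a share near the background. Without replicate 1 the count was 1 of 40, and with no filter on low values it was 9. Replicate 1 stood above both other replicates, at an adjusted p under 0.05 for each, in 7 of the 40 genes against 15.5% of all genes, and below both in 4 of the 40 against 16.6%.

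FADS1 had the widest range of the 40 genes between replicate numbers. Relative to replicate 1, its level was −1.48 in replicate 2 and −1.62 in replicate 3 on the log2 scale (SE 0.19, adjusted p = 0.00183). For FADS2 these differences were −1.06 and −1.31 (SE 0.26, adjusted p = 0.0138), so both polyunsaturated desaturases were highest in replicate 1 in both groups. MYLIP, STARD4, TM7SF2, INSIG2 and ACSL3 were the other 5 genes above both. Under the 5 scalings FADS1, FADS2, MYLIP and STARD4 were higher in replicate 1 each time, but without scaling the F test no longer passed for FADS2 (adjusted p = 0.124), MYLIP (0.200), STARD4 (0.502), TM7SF2 (0.225), INSIG2 (0.828) and ACSL3 (0.113), and ACSL3 also did not pass with the trimmed mean over all genes (0.482). Without scaling the sign of 1 difference turned for TM7SF2 (replicate 3, 0.02) and INSIG2 (replicate 3, 0.03) and of both for ACSL3 (0.31 and 0.29). SREBF1 stood at −1.04 in replicate 2 and −0.47 in replicate 3 (SE 0.16, adjusted p = 0.00717), and without scaling these were −0.30 and 0.23 and the F test did not pass (adjusted p = 0.0567).

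LSS, NSDHL, FDPS and ACLY were the 4 genes whose level in replicate 1 was below both others at an adjusted p under 0.05 for each. They were lower in replicate 1 under all 5 scalings, and the F test of ACLY was past the threshold in 4 of them (adjusted p = 0.0685 with the upper quartile). LSS was 1.03 higher in replicate 2 and 0.68 higher in replicate 3 (SE 0.22, adjusted p = 0.0182), and FDPS was 0.82 and 0.57 higher (SE 0.15, adjusted p = 0.0113). FASN stood apart in replicate 3, at 0.93 above replicate 1 and 0.77 above replicate 2 (SE 0.14, adjusted p = 0.00507), and MVD was 0.60 above each.

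**Figure D5:**
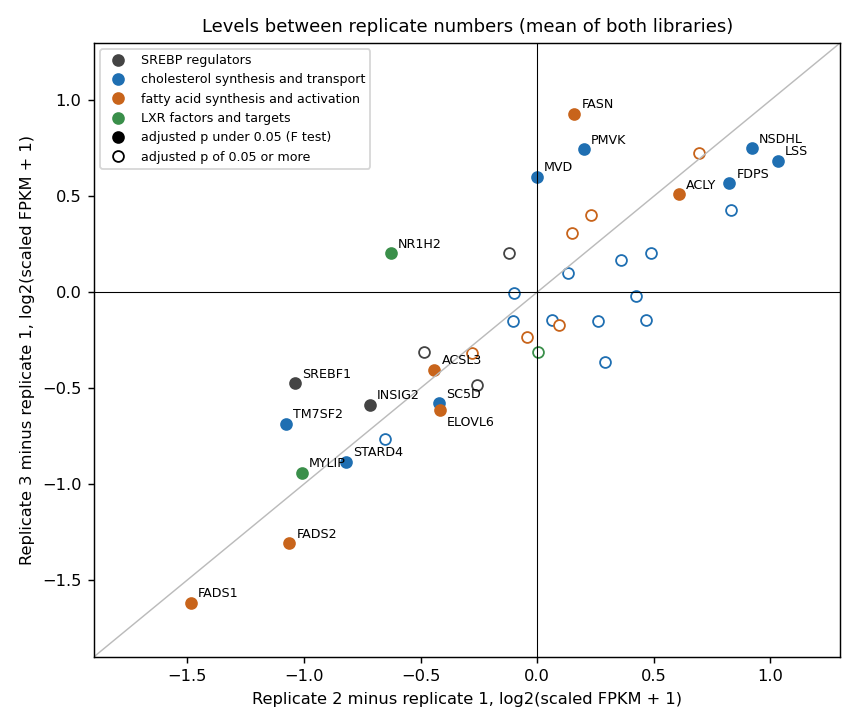
Level of the 40 tested genes in replicate 2 (x axis) and replicate 3 (y axis) relative to replicate 1, as differences of the mean log2(scaled FPKM + 1) of the ROCK2 KD and Scr libraries. The 18 genes with an adjusted p under 0.05 in the F test across replicate numbers are filled and named. FADS1 and FADS2 lie furthest towards replicate 1, and LSS, NSDHL, FDPS and ACLY lie on the opposite side.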

How the data were processed

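RNA was measured in 6 libraries of U2932 cells, 3 ROCK2 KD and 3 Scr. The authors prepared Nextera libraries, aligned paired reads to hg19 with STAR and computed the deposited FPKM with Cufflinks. The gene annotation is not given in the sources used here. The study gives sequencing depth as 1 range for all libraries. The depth of each library is given here relative to the deepest, from the steps between low FPKM. Scaling factors were trimmed means of log ratios over the genes tested (trimming 0.3 of ratios and 0.05 of levels). The filter kept genes whose FPKM reached 1 or more in 3 or more libraries. The log2(scaled FPKM + 1) values were fitted in R 4.3.3 by limma 3.58.1 with terms for replicate number (the block) and condition and a variance trend, and p-values were adjusted by Benjamini-Hochberg with a threshold of 0.05. The same fit gave the F test across replicate numbers.

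The pairing comes from the labels' shared replicate numbers and from the study's correction for replicate. Across genes, libraries with 1 number shared their departures from the group means, with correlations of 0.848, 0.784 and 0.737.

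The members and lists were chosen with earlier results of these data known. Values in every library are given for genes with an unadjusted p under 0.05, the 3 highest and 3 lowest fold changes, SREBF1, SREBF2, SCAP, INSIG1, the most abundant gene of each role group and the 3 widest ranges between replicate numbers. The fit was also run on data simulated from its own model with independent normal noise. Such a run checks the code and is no support for the results. Alternatives were the pseudocount, the filter, the scaling, the variance trend, the block, ComBat and each replicate left out. Promoter windows were searched in Python 3.11.15.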

Additional observations from a re-analysis of the deposited data

How the results depend on the processing

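Of 312 fold changes and medians of fold changes recomputed, 11 had another sign than reported, 10 of them with 1 replicate left out, and none of these was past the threshold. The 4 genes lower at an unadjusted p under 0.05 were 2 with no filter on low values and 0 with no replicate block, and ranged from 1 to 10 with 1 replicate left out (7 without replicate 1, 10 without replicate 2 and 1 without replicate 3). With ComBat and no block, where p-values can be too small, 1 of the 40 genes had an adjusted p under 0.05 (FASN). In that setting 1 was higher at an unadjusted p under 0.05. The 4 genes of the other lists at an unadjusted p under 0.05 were 0 with no replicate block and 13 with ComBat, and ranged from 0 to 3 with 1 replicate left out. The 18 genes that differed between replicate numbers were 9 with no filter and ranged from 1 to 19 with 1 replicate left out. Over all genes, 567 had an unadjusted p under 0.05, against 30 with no replicate block and 2112 with ComBat, and an adjusted p under 0.05 was reached by 297 with ComBat and by 1 without replicate 2. The trimmed mean over all genes, low ones included, was added after the data had been seen. The cause of these shifts was not tested. The files hold FPKM and no counts, so counting error could not be computed. This includes values near 1 FPKM, such as FADS2 in ROCK2 KD replicates 2 and 3 (1.35 and 1.03 scaled FPKM).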
